A study of Mus musculus with 12 samples.

Results

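The aminoacyl-tRNA synthetases are the enzymes that join each amino acid to its transfer RNA, and 36 of their genes were followed here among the 17379 genes measured in mouse heart. The genes were chosen by symbol from a fixed list, drawn up with earlier results of these data known, and all 36 were found. By their names 20 encode the cytosolic enzymes and 16, whose symbols end in 2, the mitochondrial ones. The study measured polyadenylated RNA in 12 hearts dissected at 6 months of age, 3 hearts in each of 4 groups on a C57BL background. Nontransgenic mice were wild type. The MYBPC3 deletion group was homozygous for a 25 bp deletion in MYBPC3, the gene of cardiac myosin-binding protein C. The HRC variant group was heterozygous for HRC S96A, a change of 1 residue in a calcium-binding protein of the sarcoplasmic reticulum. Compound mice carried both, the deletion in both copies and the variant in 1 copy. The labels name no treatment, and the sources used here state no founder line. The nontransgenic and deletion groups each held 2 males and 1 female (replicate 3), while all HRC variant and compound mice were female.

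Protein synthesis draws on 2 sets of these enzymes. The cytosolic set charges tRNA for ribosomes in the cytosol, and several of its members sit in a large multi-synthetase complex held together by scaffold proteins. The mitochondrial set is encoded in the nucleus, imported, and charges the tRNAs that mitochondria use to make core subunits of the respiratory chain. Heart muscle is rich in mitochondria, and inherited defects of mitochondrial synthetases such as AARS2 can cause cardiomyopathy. Uncharged tRNA is sensed by the kinase GCN2 (Eif2ak4), and through the transcription factor ATF4 this raises many cytosolic synthetase genes.

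ATF4 acts with C/EBP partners on short composite elements, and these are the regulatory letters of the family that are best known. RefSeq promoter sequences (build GRCm38.p6, 250 bases before to 50 bases after the start) were matched for 27 of the 36 genes. The element was searched on both strands as TGATGNAAN, which overlaps no other motif used here. It occurred in 5 of the 13 cytosolic promoters (38.5%) and in 0 of the 14 mitochondrial ones, against 2.76% of the 10964 tested genes with a promoter and 3.95% of all 32851 promoters of that length. A match in each gene is shown 5′ to 3′ on the strand that carries the motif, with the 9 motif bases in capitals and 10 bases on either side, because 4 of the 5 genes recur in the first comparison on 1 of the scales used.
Yars (chr4:129189896-129189924, strand of the gene): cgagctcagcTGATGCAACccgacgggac
Gars (chr6:55037960-55037988, opposite strand): gcccggtgcaTGATGAAATagcgcagcca
Aars (chr8:111033840-111033868, opposite strand): cagagcgctcTGATGAAAAgtgacccgct
Iars (chr13:49682126-49682154, opposite strand): cgtctggaggTGATGCAATactgacagtg
Tars (chr15:11399656-11399684, opposite strand): gctaaccagcTGATGCAACgggactcctg
In the matches shown, Yars and Tars had the same 9 bases, TGATGCAAC. Counting the start as 1 and the base before it as -1, the matches shown covered bases -31 to -23 in Gars, -16 to -8 in Tars, 4 to 12 in Yars, 7 to 15 in Iars and 9 to 17 in Aars. All 5 genes belong to the 12 cytosolic members often listed as ATF4 targets, of which 8 had a promoter in the table. The 5 other cytosolic promoters held 0 matches. A match describes letters and is not a measured binding site.

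Total counts were 15615182 to 20581197 per library. Only the labels say that replicates are different mice, and the p-values reflect no more than the spread among these libraries. Replicate 1 of the nontransgenic group and replicate 2 of the deletion group stood apart. They held the highest value of the 12 libraries in 14.1% and 16.7% of all 13849 tested genes and the lowest in 13.3% and 19.4%. The atrial muscle list (Nppa, Myl7, Myl4, Sln, Bmp10, Dkk3) also varied. In CPM (reads relative to a library size scaled by edgeR's trimmed mean of M values) its 6 genes summed to 3480 to 8930 in nontransgenic hearts, 3520 to 6260 with the deletion, 199 to 8770 with the HRC variant and 143 to 433 in compound hearts. Heart muscle genes (Myh6, Tnnt2, Tnni3, Actc1, Myl2, Ryr2) were abundant throughout, at a summed 57100 to 88000 CPM. In bulk tissue, fewer cells of a type and less RNA per cell cannot be told apart.

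Every synthetase gene was transcribed in every heart, with 89 to 3102 reads per library, and Pars2, in deletion replicate 1, was the only one to fall under 100 reads. Levels were compared between genes only per length, in the authors' TPM, in which each library's values sum to the same total. In nontransgenic hearts the median was 34.3 TPM over cytosolic genes and 16.4 TPM over mitochondrial genes, against 10.3 TPM over all tested genes. Kars, which charges lysine in both compartments from 1 gene, stood first with 121, 121 and 113 TPM (118.5 ± 4.58, SD, n = 3). Its lowest library was above every library of every other synthetase gene.

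Gars, the glycine enzyme and likewise shared by both compartments, followed with 60.2, 69.5 and 72.5 TPM. Fars2, the mitochondrial phenylalanine enzyme, had 77.5, 61.0 and 59.7 TPM. Iars2, the mitochondrial isoleucine enzyme, had 46.7, 63.7 and 63.9 TPM. These 3 genes overlapped, so their order is not fixed by the replicates. Dars (aspartate) was the third cytosolic gene at 54.6 ± 6.67 TPM, and Cars2 (cysteine) the third mitochondrial one at 44.3 ± 6.19 TPM.

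At the low end, Wars2, the mitochondrial tryptophan enzyme, had 2.45, 3.61 and 2.58 TPM. Mars2, the mitochondrial methionine enzyme, had 3.19, 6.39 and 5.42 TPM. Mars2 in replicate 1 lay within the range of Wars2, so the lowest 2 genes overlapped. The lowest cytosolic genes were Cars at 10.9 ± 0.199 TPM and Yars at 18.1 ± 1.19 TPM. Between neighbours in the order of means, 4 of 35 pairs did not overlap: Kars over Gars, Yars2 over Farsa, Cars over Nars2, and Nars2 over Pars2.

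**Figure D1:**
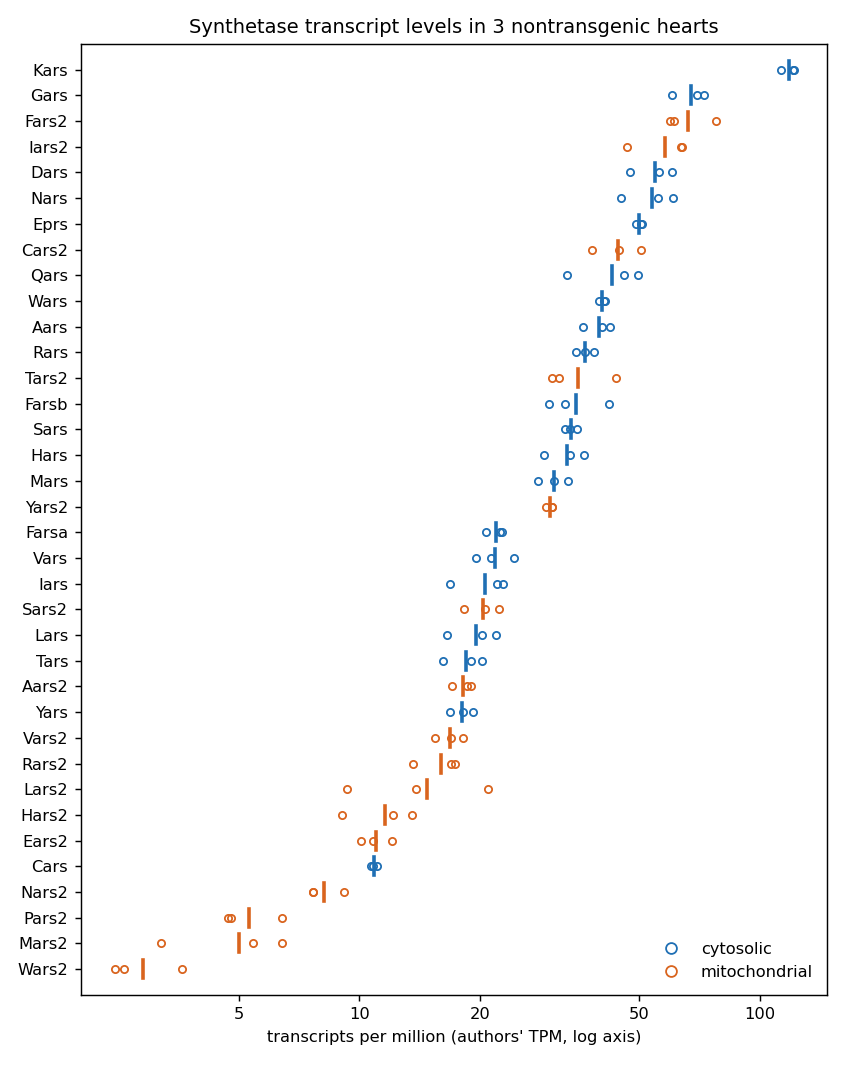
Transcript level of the 36 synthetase genes in the nontransgenic hearts, in TPM on a log axis, with a point for each of 3 libraries and a vertical bar at their mean. Kars stands alone at 118.5 TPM, and Wars2 is lowest at 2.88 TPM.

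Most amino acids are served by a pair of genes, and the mitochondrial partner was not always the lesser one. In 6 of 17 pairs it was higher per length in all 12 libraries, in 10 it was lower in all 12, and the pair for leucine was mixed. Cars2 had a median of 47.4 TPM against 11 TPM for Cars, a ratio of 4.01 (3.34 to 4.57 over the libraries). Fars2 was 3.38 times Farsa, the catalytic subunit of the cytosolic phenylalanine enzyme, and 1.85 times Farsb, its other subunit. Iars2 was 2.78 times Iars, Tars2 1.73 times Tars, and Yars2 1.6 times Yars.

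The opposite extreme was tryptophan, where Wars2 was 0.0704 times Wars (0.0601 to 0.155). Pars2, the mitochondrial proline enzyme, was 0.0963 times Eprs, the fused cytosolic enzyme for glutamate and proline. Lars2 ranged from 0.548 to 1.04 times Lars and was the higher gene in 1 library. Apart from leucine these orders held across all 4 genotypes, and they are described without a test, since the libraries are the same for both genes of a pair.

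**Figure D2:**
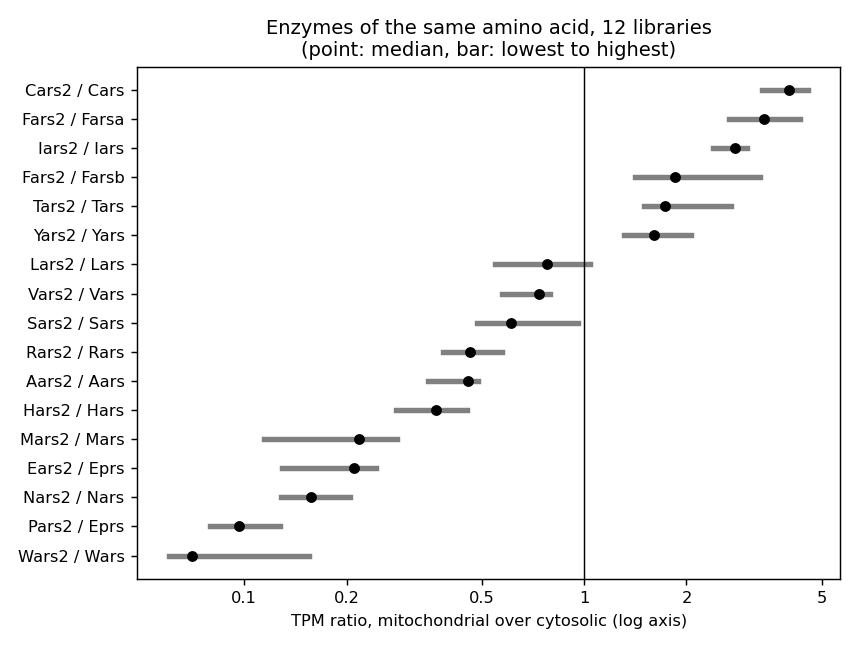
Ratio of the mitochondrial to the cytosolic gene for each amino acid, in TPM on a log axis, with the median of 12 libraries as a point and the lowest to highest ratio as a bar. Cars2 lies at 4.01 times Cars and Wars2 at 0.0704 times Wars, and only the bar for leucine crosses 1.

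Within a gene the levels varied least in the cytosolic class, while the mitochondrial class was close to all genes. The coefficient of variation of CPM over the 12 libraries had a median of 9.02% for cytosolic and 16.9% for mitochondrial genes. It was 18.6% for all tested genes, and under 15% in 27 of the 36. The sets were not matched for level. Nontransgenic replicate 1 held the highest CPM of the 12 libraries in 19 of the 36 genes (52.8%), against 14.1% of all tested genes. Deletion replicate 1 held the lowest in 10 (27.8%), against 5.25% of all tested genes. Deletion replicate 2 held it in 8 (22.2%), near its 19.4% of all tested genes. This rank depended on the scaling: in TPM the cytosolic genes of nontransgenic replicate 1 summed to 705, below replicates 2 and 3 at 791 and 805.

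**Figure D3:**
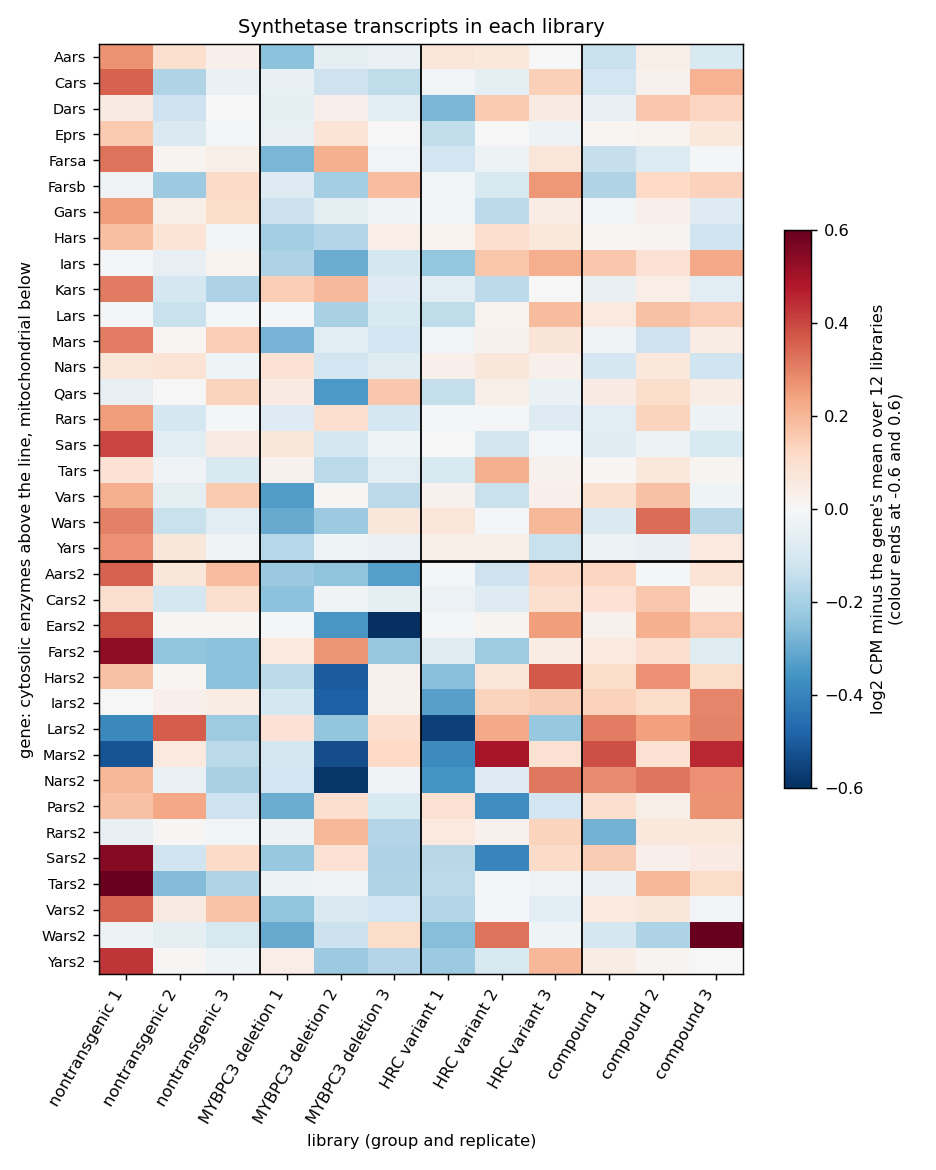
Level of each gene in each library as log2 CPM less its mean over the 12 libraries (red higher, blue lower), with cytosolic genes above the horizontal line and mitochondrial genes below. Nontransgenic replicate 1 is the reddest column, with the highest value in 19 genes, and the compound columns are mostly pale red among the mitochondrial genes.

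The first comparison asked what the homozygous MYBPC3 deletion alone does. Of the 36 synthetase genes, 31 were lower in deletion hearts than in nontransgenic hearts and 5 were higher. The median log2 difference was -0.17, or -0.15 over cytosolic and -0.18 over mitochondrial genes, against -0.005 over all tested genes. The test of edgeR over all genes called 0 of the 36, where it called 0% of all genes, and limma-voom likewise called 0. An unadjusted edgeR p under 0.05 was reached by 5 (all lower), against 8.16% of all genes. DESeq2 called 1, Aars2, against 0.963% of the genes to which it gave an adjusted p.

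Aars2, the mitochondrial alanine enzyme (gene 224805, chr17:45506807-45520843), had 38.7, 31.6 and 34.3 CPM in nontransgenic hearts. It had 25.9, 25.6 and 24.0 CPM with the deletion, 30.1, 27.7 and 32.9 CPM with the HRC variant and 33.1, 30.0 and 32.0 CPM in compound hearts. The 3 deletion hearts were the lowest of all 12 and did not overlap any other group. The log2 difference from nontransgenic hearts was -0.47 (SE 0.12), with an adjusted p of 0.346 by edgeR. DESeq2 gave -0.48 (SE 0.14) and an adjusted p of 0.0466. Without both libraries that stood apart the edgeR estimate was -0.41, and in the authors' TPM the deletion hearts (14.3, 12.6 and 13.8) again lay below all nontransgenic hearts (17.1, 19.0 and 18.5).

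Vars2, the mitochondrial valine enzyme (gene 68915, chr17:35651828-35667633), had 51.4, 42.0 and 45.5 CPM in nontransgenic and 34.3, 38.1 and 37.3 CPM in deletion hearts. The groups did not overlap, and the log2 difference was -0.34 (SE 0.11; edgeR adjusted p = 0.477). Ears2, the mitochondrial glutamate enzyme (gene 67417, chr7:122034162-122067086), had 20.7, 15.97 and 16.02 CPM against 15.9, 12.5 and 9.89 CPM. Its groups were close at the edge, and the log2 difference was -0.48 (SE 0.16; edgeR adjusted p = 0.477).

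Among cytosolic genes, Mars, the methionine enzyme of the multi-synthetase complex (gene 216443, chr10:127281956-127311786), had 61.6, 50.1 and 55.1 CPM in nontransgenic hearts. It had 40.9, 47.6 and 45.9 CPM in deletion hearts, all below the nontransgenic ones, a log2 difference of -0.31 (SE 0.12; edgeR adjusted p = 0.520). Aars, the cytosolic alanine enzyme (gene 234734, chr8:111027827-111055569), had 91.7, 81.4 and 77.7 CPM against 64.1, 72.9 and 74.0 CPM. Again no deletion heart reached the nontransgenic range, and the log2 difference was -0.25 (SE 0.11; edgeR adjusted p = 0.599). Both alanine enzymes were thus lower on this scale, neither past the threshold of edgeR.

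All 3 deletion hearts were below all 3 nontransgenic hearts in 8 of the 36 genes in CPM (Aars, Aars2, Ears2, Gars, Iars, Mars, Vars2 and Yars), against 5.5% of all genes. They were above them in 0, against 4.9% of all genes. This count depended on the scale. In the authors' TPM it was 4 of 36 (Aars2, Ears2, Vars2 and Yars2), all mitochondrial, against 2.87% of all genes, and the 5 cytosolic genes overlapped; 0 were higher, against 4.01%. Of the 5 cytosolic genes whose promoter held the motif printed above, 4 were among the 8 of the CPM count (Aars, Gars, Iars and Yars), and Tars was not, with a log2 difference of -0.06. In TPM the groups stayed apart in 0 of these 5. Of the 8 cytosolic genes whose promoter lacked it, 1 was in the CPM count (Mars). The median log2 difference was -0.19 in the cytosolic genes with the motif and -0.04 in those without it. Of the 14 mitochondrial genes whose promoter lacked it, 3 were in the CPM count, and their median was also -0.19 over all 14. The 12 cytosolic genes often listed as ATF4 targets were all lower by sign, with a median of -0.17, and of the 8 other cytosolic genes 6 were lower, with a median of -0.07. Of 26 other tested genes of the ATF4 response, 15 were higher and 11 lower, with a median of 0.02. A part of ATF4 in any of these differences was not tested.

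The count of 31 rested in part on the libraries that stood apart. Without nontransgenic replicate 1, 29 of 36 were lower, with class medians of -0.03 (cytosolic) and -0.10 (mitochondrial). Without that library and deletion replicate 2 together, 22 were lower and 14 higher, and the medians were -0.02 and -0.07. In the females alone, 1 nontransgenic against 1 deletion heart with the spread taken from all female hearts, 21 were lower. With libraries scaled by total counts, chosen after the data were seen, 25 were lower. By the authors' deposited table, 31 of the 36 were lower and 5 higher. In it 0 of the 36 had a q-value under 0.05, against 16 of 16932 genes with a q-value, and Aars2 was smallest at 0.782. Marker lists of cell types were summed in the same groups. The fibroblast list (Col1a1, Pdgfra, Dcn, Lum, all detected) summed to 1450 to 1620 CPM in deletion and 1240 to 1390 CPM in nontransgenic hearts. Of its genes 3 were higher and 1 lower. The heart muscle list overlapped, at 57100 to 68100 and 61800 to 88000 CPM. The blood list (Hba-a1, Hbb-bs, Hbb-bt, Alas2) summed to 5330 CPM in nontransgenic replicate 1 and 4710 CPM in deletion replicate 2. In the other libraries it was 1610 to 3290 CPM. The part of these lists in the synthetase values was not tested.

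**Figure D4:**
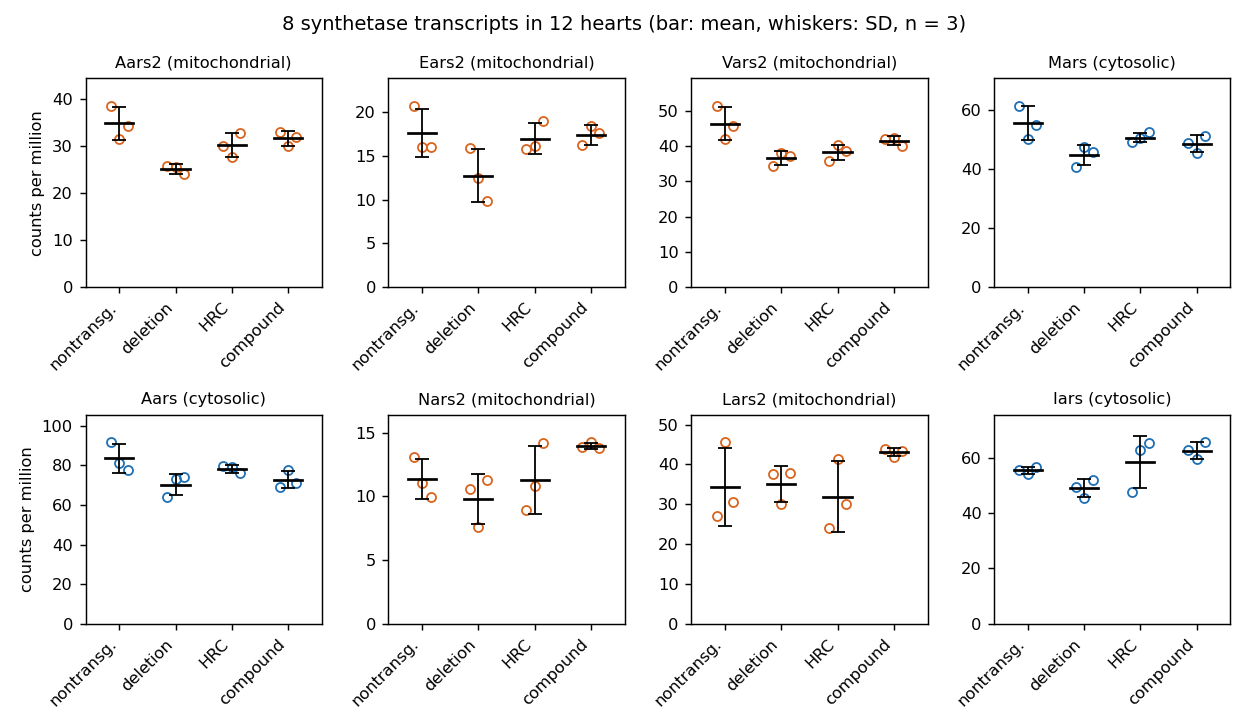
CPM of 8 synthetase genes in each heart by group, with a point per heart, the mean as a bar and the SD as whiskers (n = 3), each axis starting at 0. The deletion hearts are lowest in Aars2, at 24.0 to 25.9 CPM, and the compound hearts lie close together in Nars2 and Lars2.

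The second comparison asked what the HRC variant alone does, and the synthetase genes differed little. Of the 36, 14 were higher and 22 lower than in nontransgenic hearts, with a median log2 difference of -0.05 in cytosolic and -0.04 in mitochondrial genes, against 0.005 over all genes. The mitochondrial median had no fixed sign, at -0.20 without nontransgenic replicate 3 and 0.09 without HRC variant replicate 1. By edgeR 0 of the 36 were called, where 0% of all genes were, and DESeq2 called 0 of the 36 against 0.181% of all genes. An unadjusted edgeR p under 0.05 was reached by 0 of the 36, against 6.23% of all genes.

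The mitochondrial genes with the smallest p were Vars2 and Sars2. Vars2 had 35.8, 40.1 and 38.6 CPM, all below the nontransgenic 42.0 to 51.4 CPM, a log2 difference of -0.28 (SE 0.14; edgeR adjusted p = 0.816). Sars2, the mitochondrial serine enzyme, had 18.0, 15.3 and 21.8 CPM against 29.4, 18.5 and 21.8 CPM. These ranges overlapped, and its log2 difference was -0.25 (SE 0.22; edgeR adjusted p = 0.939).

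The cytosolic genes with the smallest p were Qars and Gars. Qars, the glutamine enzyme of the complex, had 57.2, 64.7 and 61.5 CPM against 61.2, 63.3 and 69.4 CPM, a log2 difference of -0.23 (SE 0.15; edgeR adjusted p = 0.899) that was -0.08 without the sex term. Gars had 88.5, 80.4 and 92.5 CPM against 106.6, 91.7 and 96.8 CPM, a log2 difference of -0.19 (SE 0.13; edgeR adjusted p = 0.917). Both pairs of groups overlapped. Without overlap, Rars2, the mitochondrial arginine enzyme, was higher (18.0 to 19.4 against 17.2 to 17.8 CPM) and Vars2 lower. That is 1 gene each way, against 4.18% of all genes higher and 3.76% lower. In TPM the Vars2 groups overlapped. There Cars, Rars2 and Wars were higher without overlap, 3 of 36 against 5.47% of all genes, and 0 were lower, against 1.74%.

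In compound against nontransgenic hearts, 8 cytosolic genes were higher and 12 lower, with a median log2 difference of -0.05. Of the mitochondrial genes 11 were higher and 5 lower, with a median of 0.16, against a median of -0.002 over all genes. The mitochondrial counts were 8 higher and 8 lower without the sex term, and 7 higher and 9 lower without nontransgenic replicate 3. Both edgeR and DESeq2 called 0 of the 36, against 0% and 0.275% of all genes. An unadjusted edgeR p under 0.05 was reached by 0 of the 36, against 6.36% of all genes.

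Lars2, the mitochondrial leucine enzyme (gene 102436, chr9:123304690-123462666), had 43.8, 41.9 and 43.5 CPM in compound hearts and 27.1, 45.6 and 30.5 CPM in nontransgenic hearts. The compound hearts lay close together and inside the nontransgenic range, and the log2 difference was 0.35 (SE 0.27; edgeR adjusted p = 0.923). Fars2 had 72.8, 74.97 and 66.3 CPM against 101.1, 59.3 and 58.9 CPM. Nontransgenic replicate 1 was far above the rest, and the log2 difference of 0.26 (SE 0.20; edgeR adjusted p = 0.929) became -0.03 without the sex term.

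Mars had 49.0, 45.6 and 51.3 CPM in compound hearts, with 1 heart inside the nontransgenic 50.1 to 61.6 CPM and a log2 difference of -0.20 (SE 0.14; edgeR adjusted p = 0.905). Aars had 69.3, 77.8 and 71.4 CPM, with 1 heart inside the nontransgenic 77.7 to 91.7 CPM and a log2 difference of -0.19 (SE 0.14; edgeR adjusted p = 0.915). Without overlap, Iars, Iars2, Lars, Mars2 and Nars2 were higher, 5 of 36 against 8.79% of all genes. Farsa and Gars were lower, 2 of 36 against 10% of all genes. In TPM 7 were higher (Hars2, Iars, Iars2, Kars, Lars, Nars2 and Tars) against 9.91% of all genes, and 1 was lower (Sars) against 5.73%. The mitochondrial median was -0.04 without nontransgenic replicate 3, 0.06 without compound replicate 3 and 0.01 without the sex term. The fibroblast list summed to 1010 to 1070 CPM in compound hearts, below all nontransgenic hearts. The atrial list was also lower in every compound heart than in any nontransgenic heart. The macrophage list (Csf1r, C1qa, C1qb, Cd68, Adgre1) summed to 178 to 208 CPM against 220 to 288 CPM, with 4 genes lower and 1 higher. The part of these lists was not tested.

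The comparison of compound hearts with hearts that carry the MYBPC3 deletion alone asked what the HRC variant adds to the deletion. Here 33 of the 36 genes were higher in compound hearts, 17 of 20 cytosolic and 16 of 16 mitochondrial. The median log2 difference was 0.09 over cytosolic and 0.30 over mitochondrial genes, against 0.01 over all genes. By edgeR 0 of the 36 were called, where 0% of all genes were, and DESeq2 called 0 of the 36, against 0.0433% of all genes. An unadjusted edgeR p under 0.05 was reached by 2 (both higher), against 5.73% of all genes. This comparison and the first share the deletion hearts.

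Ears2 had 16.2, 18.5 and 17.6 CPM in compound and 15.9, 12.5 and 9.89 CPM in deletion hearts. The highest deletion heart came close to the lowest compound heart, and the log2 difference was 0.70 (SE 0.20; edgeR adjusted p = 0.862). Its size moved with the fit: it was 0.45 without the sex term. Aars2, with 30.0 to 33.1 CPM in compound and 24.0 to 25.9 CPM in deletion hearts, differed by 0.38 (SE 0.15; edgeR adjusted p = 0.862) and was 0.34 without both libraries that stood apart.

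Iars, the cytosolic isoleucine enzyme (gene 105148, chr13:49681642-49797433), had 62.7, 59.5 and 65.6 CPM in compound hearts against 49.3, 45.5 and 52.0 CPM in deletion hearts. The groups lay well apart in CPM, and the log2 difference was 0.29 (SE 0.15; edgeR adjusted p = 0.877). By the authors' deposited table, Iars had the smallest q-value of the 36 in this comparison, 0.0772. There 0 of the 36 had a q-value under 0.05, against 716 of 16882 genes with a q-value. Vars, the cytosolic valine enzyme, had 54.4, 57.4 and 49.99 CPM against 40.3, 51.1 and 45.6 CPM, an overlap of 1 heart on either side, and a log2 difference of 0.22 (SE 0.16; edgeR adjusted p = 0.930).

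All 3 compound hearts were above all 3 deletion hearts in 10 of the 36 genes (Aars2, Cars2, Ears2, Hars2, Iars, Iars2, Lars, Lars2, Nars2 and Vars2), against 11.5% of all genes. They were below them in 0, against 13.7% of all genes. Of those 10, 8 are mitochondrial. In TPM it was 12 of 36, again with 8 mitochondrial, against 10.5% of all genes, and 0 were below, against 9.89%. Nars2, the mitochondrial asparagine enzyme, had 13.9, 14.3 and 13.8 CPM against 10.6, 7.61 and 11.3 CPM, so that every compound heart was above every deletion heart. Hars2 and Hars (histidine) lie next to each other on chromosome 18, and no source used here gives the counting rule, so how reads near their boundary were assigned is uncertain.

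In summed TPM the 16 mitochondrial genes came to 398, 400 and 407 in compound hearts and 334, 314 and 363 in deletion hearts. They came to 352, 373 and 365 in nontransgenic and 331, 389 and 382 in HRC variant hearts. The 3 compound hearts were the highest of the 12. The 20 cytosolic genes came to 777 to 819 in compound hearts, which overlapped the nontransgenic (705 to 805), deletion (630 to 823) and HRC variant hearts (747 to 850).

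The sign count held without both libraries that stood apart, at 32 of 36 higher and 16 of 16 mitochondrial. In females alone, 3 compound against 1 deletion heart, 28 of 36 were higher, 16 of 16 mitochondrial, with a mitochondrial median of 0.19. Without deletion replicate 3 that median was 0.46. Scaled by total counts, 26 of 36 were higher, 15 of 16 mitochondrial. The counts were 30 of 36 and 14 of 16 without the sex term. They were 31 of 36 and 14 of 16 without compound replicate 3. Markers of other cell types differed here too. The fibroblast list summed to 1010 to 1070 CPM in compound and 1450 to 1620 CPM in deletion hearts. The atrial list was lower in every compound heart than in any deletion heart, and Bmp10 was at 0 in compound replicate 3. The macrophage list summed to 178 to 208 CPM in compound and 261 to 341 CPM in deletion hearts, with 5 of 5 genes lower. The heart muscle list overlapped, at 66200 to 73700 and 57100 to 68100 CPM. Of its genes 6 of 6 were higher, with a median log2 difference of 0.235. The part of these lists in the higher synthetase values was not tested.

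**Figure D5:**
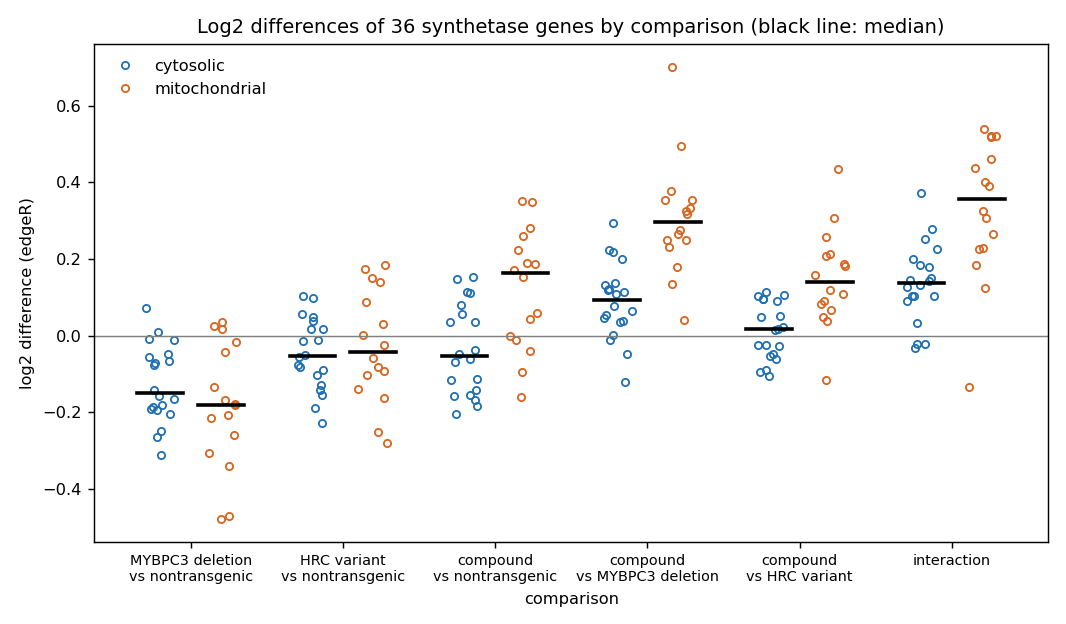
Fitted log2 difference of each synthetase gene in each comparison, cytosolic in blue and mitochondrial in orange, with a black line at each class median. All 16 mitochondrial genes lie above 0 for compound against MYBPC3 deletion hearts (median 0.30), and most genes of both classes lie below 0 for deletion against nontransgenic hearts.

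Compound hearts were next set against HRC variant hearts, all of them female, to ask what the deletion adds to the variant. Of the 36 genes 26 were higher, 11 of 20 cytosolic (median 0.02) and 15 of 16 mitochondrial (median 0.14), against a median of -0.01 over all genes. Both edgeR and DESeq2 called 0 of the 36, against 0% and 0.332% of all genes, and 0 of the 36 had an unadjusted edgeR p under 0.05, against 6.3% of all genes.

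Lars2 was the member with the smallest p. It had 43.8, 41.9 and 43.5 CPM in compound and 24.0, 41.5 and 30.2 CPM in HRC variant hearts, which spread widely but stayed below. The log2 difference was 0.43 (SE 0.21; edgeR adjusted p = 0.804). Nars2, at 13.8 to 14.3 CPM against 8.91, 10.8 and 14.2 CPM, overlapped, with a difference of 0.31 (SE 0.20; edgeR adjusted p = 0.861).

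The cytosolic genes Aars and Qars differed by -0.11 (SE 0.11) and 0.11 (SE 0.12), each with an edgeR adjusted p of 0.945. Qars had 65.4, 68.0 and 65.2 CPM in compound hearts, just above the 64.7 CPM of the highest HRC variant heart. Without overlap, Eprs, Lars2 and Qars were higher, 3 of 36 against 6.2% of all genes, and Hars was lower, 1 of 36 against 6.22%. In TPM Hars2 and Pars2 were higher, 2 of 36 against 5.1%, and Rars2 and Sars lower, 2 of 36 against 6.12%.

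The interaction asked whether both alterations together differ from the sum of each alone on the log2 scale. It was above 0 in 32 of 36 genes, with a median of 0.14 over cytosolic and 0.36 over mitochondrial genes, against -0.01 over all genes. By edgeR 0 of the 36 passed, as did 0% of all genes, and DESeq2 called 0 of the 25 synthetase genes to which it gave an adjusted p, against 0.864% of all such genes. It left the other 11 empty, Ears2 among them. An unadjusted edgeR p under 0.05 was reached by 3 (all above 0), against 8.54% of all genes. They were Aars2 at 0.54 (SE 0.17; edgeR adjusted p = 0.524), Vars2 at 0.46 (SE 0.16; edgeR adjusted p = 0.563) and Ears2 at 0.52 (SE 0.23; edgeR adjusted p = 0.575).

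In each of these 3 mitochondrial genes the deletion group had the lowest mean of the 4 groups. Mean CPM in deletion and compound hearts was 25.2 ± 1.0 and 31.7 ± 1.57 for Aars2, 36.5 ± 1.98 and 41.5 ± 1.33 for Vars2, and 12.7 ± 2.99 and 17.4 ± 1.14 for Ears2 (SD, n = 3). The cytosolic genes with the smallest p were Vars at 0.37 (SE 0.18; edgeR adjusted p = 0.598) and Iars at 0.28 (SE 0.18; edgeR adjusted p = 0.690). Without both libraries that stood apart the interaction was above 0 in 28 of 36, with class medians of 0.09 and 0.25. With libraries scaled by total counts the cytosolic and mitochondrial medians were 0.04 and 0.26.

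The structural classes of the enzymes were also counted. Eprs, the fused enzyme for glutamate and proline, was counted only with class I, whose catalytic domain is a Rossmann fold. Of the 19 genes so counted, 16 were lower in deletion hearts (median -0.17) and 18 higher in compound than in deletion hearts (median 0.20). Of the 17 genes of class II the counts were 15 lower (median -0.17) and 15 higher (median 0.12). The 8 genes of the multi-synthetase complex were lower in 7 cases in deletion hearts, with a median of -0.06, and higher in 7 in compound against deletion hearts, with a median of 0.11.

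Among other genes of the pathway, edgeR called 0 in any comparison. Some differed by more than any synthetase gene. The log2 difference reached -1.58 among ATF4 response genes in HRC variant against nontransgenic hearts. That list includes genes of low level, such as Chac1 at 0.61 to 8.23 CPM, and it was not matched to the synthetase genes for level. The largest of a synthetase gene was 0.70, in compound against deletion hearts. In the deletion against nontransgenic hearts an unadjusted edgeR p under 0.05 was reached by 2 of the 13 helpers of charging and 1 of the 26 tested ATF4 response genes. It was reached by 0 of the scaffold genes, elongation factors and Eif2 kinases, against 8.16% of all genes. Of the scaffold genes Aimp1, Aimp2 and Eef1e1, Aimp2 had the smallest p, at -0.29 (SE 0.14; edgeR adjusted p = 0.617) in deletion and 0.36 (SE 0.17; edgeR adjusted p = 0.862) in compound against deletion hearts. Among the helpers, 6 were lower and 7 higher in deletion hearts. Trnt1, which adds the CCA end to tRNA, was 0.33 higher (SE 0.12; edgeR adjusted p = 0.520). The elongation factor list held 10 genes (Eef1a1, Eef1a2, Eef1b2, Eef1d, Eef1g, Eef2, Tufm, Tsfm, Gfm1 and Gfm2). Of these, 7 were lower in deletion hearts (median -0.15) and 8 higher in compound than in deletion hearts (median 0.12). Eef1a1 stood at -0.68 (SE 0.27; edgeR adjusted p = 0.862) in compound against deletion hearts. The 4 Eif2 kinases were 2 higher and 2 lower in deletion hearts.

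The ATF4 response genes other than synthetases were mostly lower in compound hearts. Of 26 tested genes 20 were lower than in nontransgenic hearts (median -0.38) and 21 lower than in deletion hearts (median -0.21). DESeq2 called 1 of them against nontransgenic hearts, where it called 0.275% of all genes. This was Ddit4, a stress-induced inhibitor of mTOR signalling. Ddit4 had 17.1, 11 and 14.1 CPM in compound hearts (14.1 ± 3.04, SD, n = 3). It had 20.0, 19.3 and 34.9 CPM in nontransgenic hearts (24.7 ± 8.83). The highest of these, replicate 3, was the only female of the nontransgenic group. The ranges did not overlap, and 10% of all genes were likewise lower without overlap. The log2 difference was -1.08 (SE 0.28, DESeq2 adjusted p = 0.0416), while edgeR gave an adjusted p of 0.536. Atf4 itself differed by -0.03 (SE 0.21; edgeR adjusted p = 0.996). In the same hearts the 12 cytosolic synthetase genes often listed as ATF4 targets had a median of -0.05, with 5 higher and 7 lower.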

How the data were processed

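The authors deposited one table of expected counts (estimated reads per gene and heart) with the authors' TPM, log2 fold changes and DESeq2 q-values, per the file headers. HISAT, Bowtie2, DESeq2 and build GRCm38.p6 come from the submitters' processing notes. No source used here says what each tool did, or names the counter and the annotation. Of 17380 lines 1 held no values and was dropped, and 25 symbols that a spreadsheet had turned into dates were restored by gene identifier. Of the counts 94.3% were whole numbers, and all were rounded. Coordinates are those of the deposited table, and promoters those of RefSeq. A further promoter sequence is not reported here.

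Genes with low counts were removed by edgeR's filter (minimum count 10), which kept 13849 genes and removed 3530, and all 36 synthetase genes passed. One edgeR 4.0.16 quasi-likelihood model (R 4.3.3) over all 12 hearts had group and sex as terms, sex being estimated only within the nontransgenic and deletion groups (7 residual degrees of freedom, biological coefficient of variation 21.5%). Adjusted p-values are Benjamini-Hochberg over all genes tested, called under 0.05, and a value without another tool's name is edgeR's. DESeq2 1.42.0 was an alternative. An adjusted p that DESeq2 left empty stayed out of its counts. The script was tested on simulated data.

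The members and gene lists were chosen with earlier results of these data known. In each comparison the genes called by either tool and the 2 mitochondrial and 2 cytosolic genes of smallest p are named, with the 3 highest and 2 lowest levels of each class. Genes named beyond that, such as Ears2 in deletion hearts and Nars2, were chosen after their values were seen. Alternatives changed the sex term, the tool (DESeq2, or limma-voom with limma 3.58.1), size factors, the filter, the groups fitted, a replicate block and the libraries kept. Total-count scaling, limma on the authors' log2(TPM + 1) and counts of groups that do not overlap in TPM were chosen after seeing the data.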

Additional observations from a re-analysis of the deposited data

Results flagged for a closer look

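In CPM, Vars2 differed in opposite directions with the HRC variant on the 2 backgrounds. All HRC variant hearts (35.8 to 40.1 CPM) were below all nontransgenic hearts (42.0 to 51.4 CPM), and all compound hearts (39.9 to 42.4 CPM) were above all deletion hearts (34.3 to 38.1 CPM). The interaction was 0.46 on the log2 scale (SE 0.16) and missed the threshold, with adjusted p-values of 0.563 by edgeR and 0.222 by DESeq2. In the authors' TPM the HRC variant hearts (13.5, 16.9 and 14.7) overlapped the nontransgenic hearts (15.5, 16.9 and 18.2), while all compound hearts (16.6, 16.3 and 15.9) were above all deletion hearts (12.5, 11.9 and 15.4). The interaction ranged from 0.38 to 0.55 when single libraries were left out and was 0.42 without both libraries that stood apart.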

How the results depend on the processing

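Of 548 values of the named genes under the alternatives, 546 kept their direction and their side of the threshold, 1 (Aars2 by DESeq2, -0.48) passed it, and Fars2 in compound against nontransgenic hearts turned to -0.03 without the sex term. The number of genes called stayed at 0 in 136 of 137 cases and was 1 by DESeq2 for the deletion. Both counts are a weak check. Every edgeR adjusted p of the main fit was 0.346 or more, so keeping the side of the threshold says little. Most named genes were chosen by small p in these same data. Some alternatives left out libraries of groups that were not compared. The class medians moved by at least the SD between replicates (0.08 cytosolic, 0.094 mitochondrial) in 27 of 274 cases, and the cause was not tested. For the deletion against nontransgenic hearts, the cytosolic median was -0.02 without both libraries that stood apart, -0.05 in females only and -0.19 to -0.03 with single libraries left out (-0.03 without nontransgenic replicate 1). The mitochondrial median was -0.07, 0.0 and -0.29 to -0.10 in the same order (-0.29 without replicate 3 of either group). For the HRC variant against nontransgenic hearts the mitochondrial median was 0.06 with the replicate block, 0.07 in the compared groups only, 0.08 in females only and -0.20 (without nontransgenic replicate 3) to 0.09 (without HRC variant replicate 1) with single libraries left out, and 0.07 without deletion replicate 3. For compound against nontransgenic hearts it was 0.01 without the sex term and -0.04 (without nontransgenic replicate 3) to 0.20 with single libraries left out, and 0.06 without compound replicate 3. For compound against deletion hearts it was 0.20 in the compared groups only, 0.19 in females only and 0.21 to 0.46 (without deletion replicate 3) with single libraries left out. For the interaction the cytosolic median was 0.05 in females only, 0.04 with total counts and 0.05 (without nontransgenic replicate 1) to 0.19 with single libraries left out. The mitochondrial median was 0.25 without both libraries, 0.17 in females only, 0.26 with total counts and 0.23 (without HRC variant replicate 1) to 0.46 (without HRC variant replicate 3) with single libraries left out. The counts of genes whose groups did not overlap moved by more than 1.5 times in the authors' TPM for the deletion (4 lower), the HRC variant (3 higher, 0 lower), compound against nontransgenic (1 lower) and compound against HRC variant hearts (2 lower). The female-only fit leaves 1 nontransgenic and 1 deletion heart, each assumed to vary like the other groups.

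Same-numbered replicates do not pair by the labels, and in 5 of 18 same-number pairs the correlation of deviations was over 0.1 (range -0.24 to 0.316), with 2 of 12 libraries closest to their own number. With the replicate block 0 of the 36 genes were called in every comparison, and the mitochondrial median was -0.18, 0.06, 0.22, 0.38, 0.13 and 0.35 in the order of the report. Groups of 3 limit what these counts can show: a missed threshold does not show that levels were equal.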
